A study of Mus musculus with 4 samples.

Results

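The barcodes described here were chosen from 2 lung single-cell libraries for carrying transcripts of lung epithelium. A barcode was selected if 200 or more genes were detected in it, if mitochondrial genes gave no more than 10% of its UMIs (unique molecular identifiers, counts of captured RNA molecules), and if Sftpc, Sftpa1, Sftpb, Sftpd and Scgb1a1 (the rule genes) together gave at least 10 UMIs and at least 1% of the UMIs left after haemoglobin genes were removed. It also had to hold no UMI of the leukocyte genes Ptprc, Cd79a and Cd3e. The rule selected 399 of the 27495 lung barcodes that passed the gene and mitochondrial limits (kept barcodes), 278 of 13363 in the metastasis library and 121 of 14132 in the sham library. The 4 libraries of the series held 49121 kept barcodes in all. The counts of these 5 genes chose the barcodes, so their levels below are a description. They were labelled lung epithelial cells, and they carried further airway and alveolar transcripts, but only 12.9% in the metastasis lung and 17.4% in the sham lung held a UMI of Malat1, a nuclear RNA that most intact cells carry. They are therefore called Scgb1a1- or surfactant-rich barcodes here.

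All mice were female C57/Bl6 animals aged 6 to 8 weeks. The metastasis arm received 800000 B16F10 mouse melanoma cells in the spleen, a route that gives liver metastases, and the sham arm received saline there. In both arms the spleen was removed at once, 250000 B16F10 cells were placed under the skin, and lungs and blood were taken on day 7, so the sham mice also bore a melanoma. Each arm gave 1 lung and 1 blood library, the sources used here do not state how many mice each held, and no test across animals was possible. Lungs were pressed through a 70 µm filter and passed over 2 columns that remove dead cells, and the series' design text names an enrichment for CD45 (the product of Ptprc), a leukocyte surface protein that epithelium lacks.

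The airways are lined by ciliated cells and by secretory club cells, whose main product is the secretoglobin encoded by Scgb1a1. The alveoli are lined by flat type I cells and by cuboidal type II cells, which make surfactant lipid and the surfactant proteins, of which Sftpc is the most specific to type II cells. Sftpa1, Sftpb and Sftpd are also made by club cells.

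The 4 libraries held between 112079231 and 132540945 UMIs in 18115 to 36125 barcodes, and haemoglobin genes took 78.1% of the metastasis lung UMIs and 65.7% of the sham lung UMIs. In the blood libraries, 0 of 8597 and 0 of 13029 kept barcodes met the rule, which allows shares of up to 0.0349% and 0.0230%, and no kept blood barcode had more than 2 UMIs of the 5 genes. The lung libraries shared 316 barcode sequences, which was 1.01% of the metastasis barcodes and 0.875% of the sham barcodes. Of the selected metastasis barcodes, 7 had a sequence that also occurred in the sham library, in no case as a selected barcode there. In addition, 1 selected metastasis barcode occurred in the blood library of its arm. Intervals below are exact 95% intervals and cover counting error only.

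Most selected barcodes had more Scgb1a1 than Sftpc UMIs, and a smaller set had more Sftpc. The 5 rule genes took over 50% of the UMIs without haemoglobin in 104 of 278 metastasis and 58 of 121 sham barcodes. A split made after the values were seen gave 3 classes. Barcodes with at least 50% haemoglobin UMIs were called haemoglobin-rich, and the others were called Scgb1a1-weighted or Sftpc-weighted by the gene with more UMIs. The metastasis lung had 157 Scgb1a1-weighted, 13 Sftpc-weighted and 108 haemoglobin-rich barcodes, and the sham lung had 73, 21 and 27. Scgb1a1 and Sftpc lay within 3-fold of each other in only 1 metastasis and 2 sham barcodes, so few sat near that cut. A haemoglobin share of 40% to 60% was found in 13 metastasis and 9 sham barcodes.

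**Figure D1:**
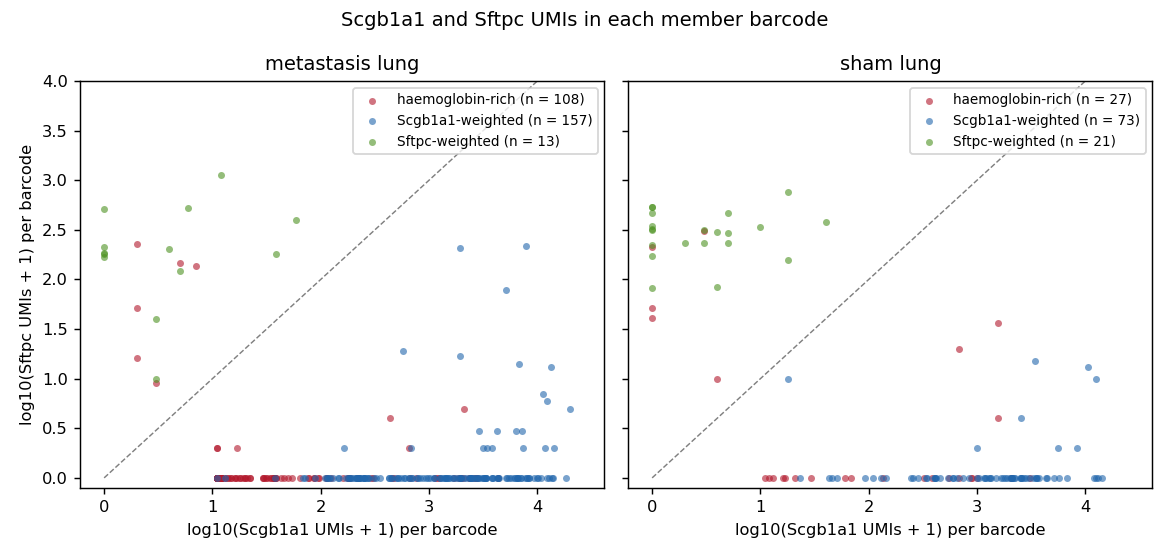
UMIs of Scgb1a1 (x axis) and Sftpc (y axis) per selected barcode, as log10(UMIs + 1), in the metastasis lung (left) and sham lung (right), with each point 1 barcode coloured by class and the dashed line marking equal counts. Most points lie along the bottom axis with no Sftpc UMI, and the Sftpc-weighted barcodes (13 and 21) form a separate group at the upper left.

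In Scgb1a1-weighted barcodes, Scgb1a1 ran from 10 to 20102 UMIs with a median of 1786 in the metastasis lung, and from 17 to 14248 with a median of 1742 in the sham lung. Pooled, Scgb1a1 was 70.4% and 72.0% of their UMIs without haemoglobin. Their median number of genes was 386 in the metastasis lung and 357 in the sham lung, against 1032 and 1267 in the other kept barcodes under 50% haemoglobin. In Sftpc-weighted barcodes, Sftpc ran from 9 to 1128 UMIs with a median of 185 in the metastasis lung, and from 81 to 757 with a median of 315 in the sham lung. Their median numbers of genes were 293 and 329. Haemoglobin-rich barcodes had a median of 29.5 Scgb1a1 UMIs in the metastasis lung and 68 in the sham lung, so this class lay closest to the threshold of the rule.

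Scgb1a1 RNA was also seen in cells that do not make it. Among B cell barcodes (at least 2 Cd79a UMIs), 61.2% had a Scgb1a1 UMI in the metastasis lung and 32.7% in the sham lung, with median total depths of 1795 and 2354 UMIs and 99th percentile values of 11 and 6 Scgb1a1 UMIs. Sftpc was seen in 1.21% and 1.01% of the same barcodes. Just inside the threshold, 35 metastasis and 4 sham barcodes had 10 to 14 UMIs of the 5 genes, and 33 of the 35 and 4 of the 4 were haemoglobin-rich. Just outside it, 38 metastasis barcodes and 1 sham barcode had 8 or 9 UMIs. The part of free Scgb1a1 RNA in the selection of the haemoglobin-rich barcodes was not tested.

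**Figure D2:**
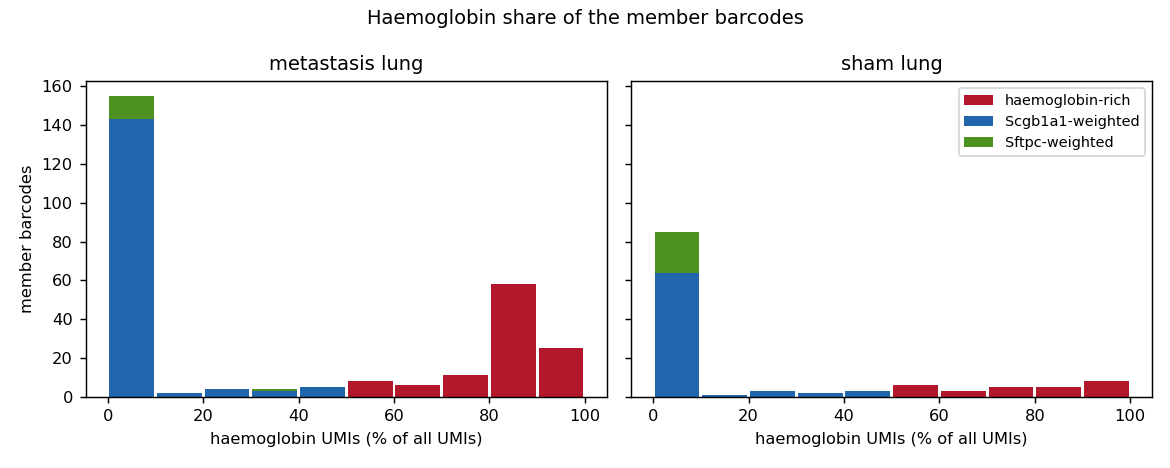
Number of selected barcodes (y axis) by the share of haemoglobin UMIs among all UMIs (x axis, bins of 10 percentage points) in the metastasis lung (left) and sham lung (right), coloured by class. Most barcodes lie in the lowest bin, and the metastasis lung has a further group above 80% that is smaller in the sham lung.

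Malat1, which is noncoding and usually abundant, was absent from most selected barcodes. A Malat1 UMI was present in 14 of 157 Scgb1a1-weighted barcodes in the metastasis lung (8.92%, 4.96 to 14.5) and in 13 of 73 in the sham lung (17.8%, 9.84 to 28.5). It was present in 2 of 13 and 4 of 21 Sftpc-weighted barcodes. In the other kept barcodes under 50% haemoglobin the shares were 98.8% and 99.2%. Among kept barcodes with at least 50% haemoglobin, 18.5% and 14.8% of the selected ones held a Malat1 UMI, against 30.8% and 74.4% of the others. Cells of the lung structure that are neither blood cells nor epithelium also had it: 95.5% of 22 and 89.5% of 38 barcodes with fibroblast markers, and 82.4% of 17 and 68.8% of 48 with endothelial markers, held a Malat1 UMI.

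Transcripts of the mitochondrial genome were also missing from many Scgb1a1-weighted barcodes, but not from the haemoglobin-rich ones. Over all selected barcodes, 50.7% in the metastasis lung and 58.7% in the sham lung held a mitochondrial UMI. The share was 96.3% of haemoglobin-rich barcodes in each library, and 38.5% and 71.4% of Sftpc-weighted barcodes. At least 1 mitochondrial UMI was present in 20.4% (14.4 to 27.5) of Scgb1a1-weighted barcodes in the metastasis lung and in 41.1% (29.7 to 53.2) in the sham lung, against 97.7% and 99.7% of the other kept barcodes under 50% haemoglobin. Neither Malat1 nor a mitochondrial UMI was found in 117 of 157 and 39 of 73 Scgb1a1-weighted barcodes, which was 74.5% and 53.4%. The same held for 0.392% and 0.176% of the other kept barcodes under 50% haemoglobin. Depth was then set equal by drawing 200 UMIs per barcode from genes other than haemoglobin and the 5 rule genes, and no barcode was too shallow for this. At that depth Malat1 was seen in 4.46% of the metastasis and 11.0% of the sham Scgb1a1-weighted barcodes, against 87.5% and 90.0% of the others, and a mitochondrial UMI in 11.5% and 28.8% against 88.1% and 99.0%.

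**Figure D3:**
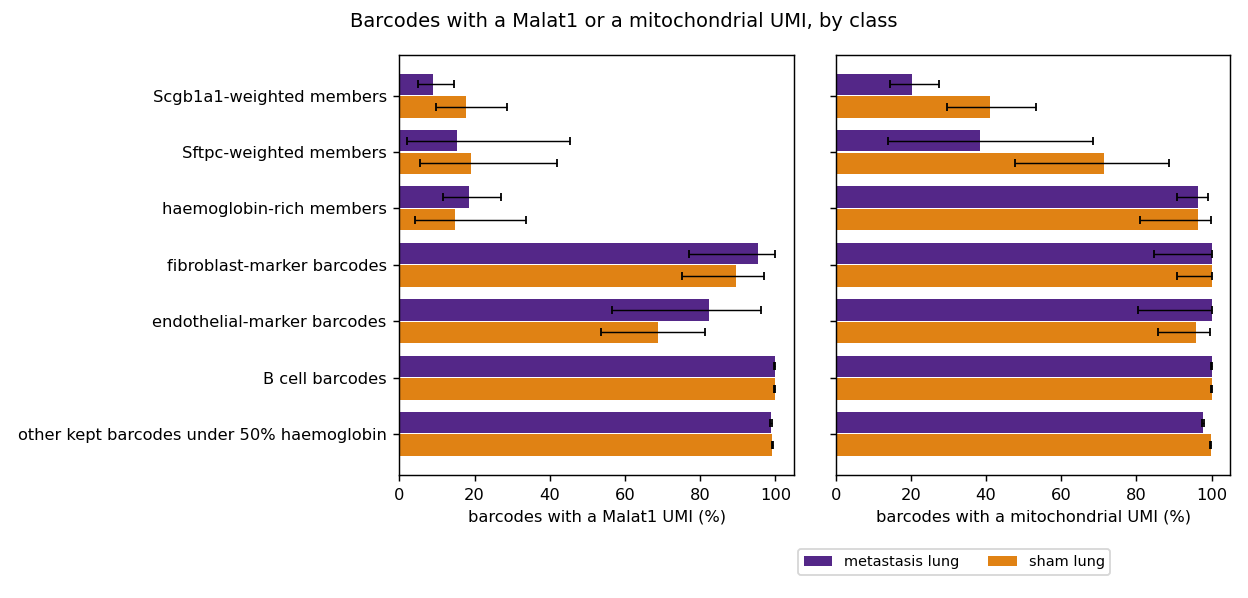
Share of barcodes with a Malat1 UMI (left) and with a mitochondrial UMI (right) in 7 classes of barcode (y axis), as bars for the metastasis and sham lung libraries with exact 95% intervals. Scgb1a1-weighted barcodes have the lowest mitochondrial shares (20.4% and 41.1%), and all 3 classes of selected barcodes have Malat1 shares under 20%.

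Barcodes with many Malat1 UMIs or many genes were few. At least 10 Malat1 UMIs were found in 9 metastasis and 6 sham barcodes. More than 1000 genes were detected in 8 metastasis barcodes and 1 sham barcode. The deepest barcode of the metastasis lung had 31462 UMIs without haemoglobin, 5651 genes, 361 Malat1 UMIs, 8361 Scgb1a1 UMIs and no Sftpc UMI. The deepest Sftpc-weighted barcode had 6521 UMIs, 2165 genes, 84 Malat1 UMIs and 1128 Sftpc UMIs. Both were in the metastasis library, and the deepest sham barcode had 17369 UMIs, 887 genes and no Malat1 UMI.

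Among markers of other cell types, those of red cells were abundant and the rest were rare. The 5 erythroid genes, haemoglobins among them, gave 650310 UMIs in the metastasis lung and 152466 in the sham lung, and every selected barcode held some. All 6 fibroblast markers, collagens among them, and all 5 melanoma markers, among them Pmel and Mlana, were at 0 in both libraries. The 9 alveolar macrophage markers summed to 5 UMIs in the metastasis lung and 0 in the sham lung. The 7 endothelial markers summed to 7 and 6, with 2 of the 7 seen in the metastasis lung and 4 in the sham lung. The 6 B cell markers summed to 16 and 25, the 6 T cell markers to 13 and 15, the 5 natural killer cell markers to 11 and 7, and the 6 monocyte markers to 7 and 6. The rule allowed no UMI of Ptprc, Cd79a or Cd3e, so low sums of leukocyte markers follow in part from the selection. Cd79a is itself in the B cell list and Cd3e in the T cell list. The 4 platelet markers summed to 3 and 0, and the 4 mesothelial markers to 4 and 3. Neutrophil markers, 8 genes, summed to 924 UMIs in the metastasis lung and 2 in the sham lung, and 782 of the 924 came from 1 barcode with 276 Scgb1a1 UMIs. With a fixed score of 0.3, Scrublet marked 0 metastasis and 1 sham barcode as a doublet.

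Airway secretory genes outside the rule set the Scgb1a1-weighted barcodes apart from the Sftpc-weighted ones, in both libraries. Levels in these paragraphs are pooled counts per 1000000 UMIs without haemoglobin and without the 5 rule genes (CPM without rule genes), since the rule genes take very different shares of the 2 classes. Cyp2f2, a cytochrome P450 of club cells, had a level of 2946 in Scgb1a1-weighted barcodes and 79.1 in Sftpc-weighted barcodes of the metastasis lung, from 628 and 1 UMIs. In the sham lung the levels were 4481 and 73.5. Hp, which encodes haptoglobin, had levels of 4447 and 553 in the metastasis lung and 5805 and 1029 in the sham lung.

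Retnla, a resistin-like secreted protein, gave 679 and 137 UMIs in the Scgb1a1-weighted barcodes of the metastasis and sham lungs and 0 in the Sftpc-weighted barcodes. The detoxifying enzymes Aldh1a1 (187 and 59 UMIs) and Gsta3 (270 and 71 UMIs) had at most 1 UMI in the Sftpc-weighted barcodes of either library. Bpifa1, an antimicrobial protein of the airway surface, was detected in few Scgb1a1-weighted barcodes, 9.55% in the metastasis lung and 11.0% in the sham lung, yet gave 3066 and 833 UMIs. It was at 0 in all Sftpc-weighted barcodes. The secretoglobin Scgb3a1 had the same form, with 2629 and 565 UMIs in 14.0% and 8.22% of the Scgb1a1-weighted barcodes and 0 in the others, so these genes varied between Scgb1a1-weighted barcodes more than the following genes did.

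Cbr2, a carbonyl reductase, and Wfdc2, a secreted protease inhibitor, were present in nearly all barcodes of both classes. Cbr2 was detected in 96.8% and 93.2% of Scgb1a1-weighted barcodes, in 92.3% and 90.5% of Sftpc-weighted barcodes, and in 1.26% and 0.603% of B cell barcodes. Its level was lower in the Sftpc-weighted class by a log2 ratio of -1.61 (-2.02 to -1.23) in the metastasis lung and -1.53 (-1.96 to -1.12) in the sham lung. For Wfdc2 the log2 ratios were -0.87 (-1.21 to -0.54) and -0.63 (-0.95 to -0.32). Relative to 1000 Scgb1a1 UMIs, Cbr2 gave 5.73 UMIs in Scgb1a1-weighted, 6.62 in haemoglobin-rich and 9.80 in other kept barcodes of the metastasis lung, and 4.15, 6.07 and 7.42 in the sham lung.

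Genes of alveolar type II cells were in the Sftpc-weighted barcodes. In the metastasis lung, the deepest of these 13 held 5162 UMIs outside haemoglobin and the rule genes, against a class median of 609. That 1 barcode therefore weighs heavily in the pooled metastasis levels of this class, which the intervals do not cover. Lyz2, a lysozyme of type II cells and of myeloid cells, was detected in all 13 and all 21 Sftpc-weighted barcodes and in 7.64% and 6.85% of the Scgb1a1-weighted ones. Its log2 ratio of Sftpc-weighted over Scgb1a1-weighted levels was 6.10 (5.85 to 6.36) in the metastasis lung and 7.20 (6.68 to 7.78) in the sham lung. Fabp5, a fatty acid carrier, gave 42 against 2 UMIs in the metastasis lung and 85 against 0 in the sham lung. Scd1, a desaturase that makes monounsaturated fatty acids, gave 38 against 5 and 55 against 0.

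The surfactant processing protease Napsa gave 28 against 5 UMIs in the metastasis lung and 36 against 0 in the sham lung, but it was also seen in 56.5% and 62.6% of B cell barcodes. Slc34a2, a phosphate transporter, gave 41 against 4 and 24 against 3, and the lamellar body protein Lamp3 gave 9 against 0 and 11 against 0. Cd74, the invariant chain of MHC class II, had log2 ratios of 5.47 (4.43 to 6.62) and 3.50 (2.49 to 4.58). The alarmin Il33 gave 4 and 8 UMIs in Sftpc-weighted barcodes and 0 in Scgb1a1-weighted ones. Cxcl15, the chemokine called lungkine, was in both classes, with levels of 6798 against 1661 in the metastasis lung and 12200 against 1325 in the sham lung.

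**Figure D4:**
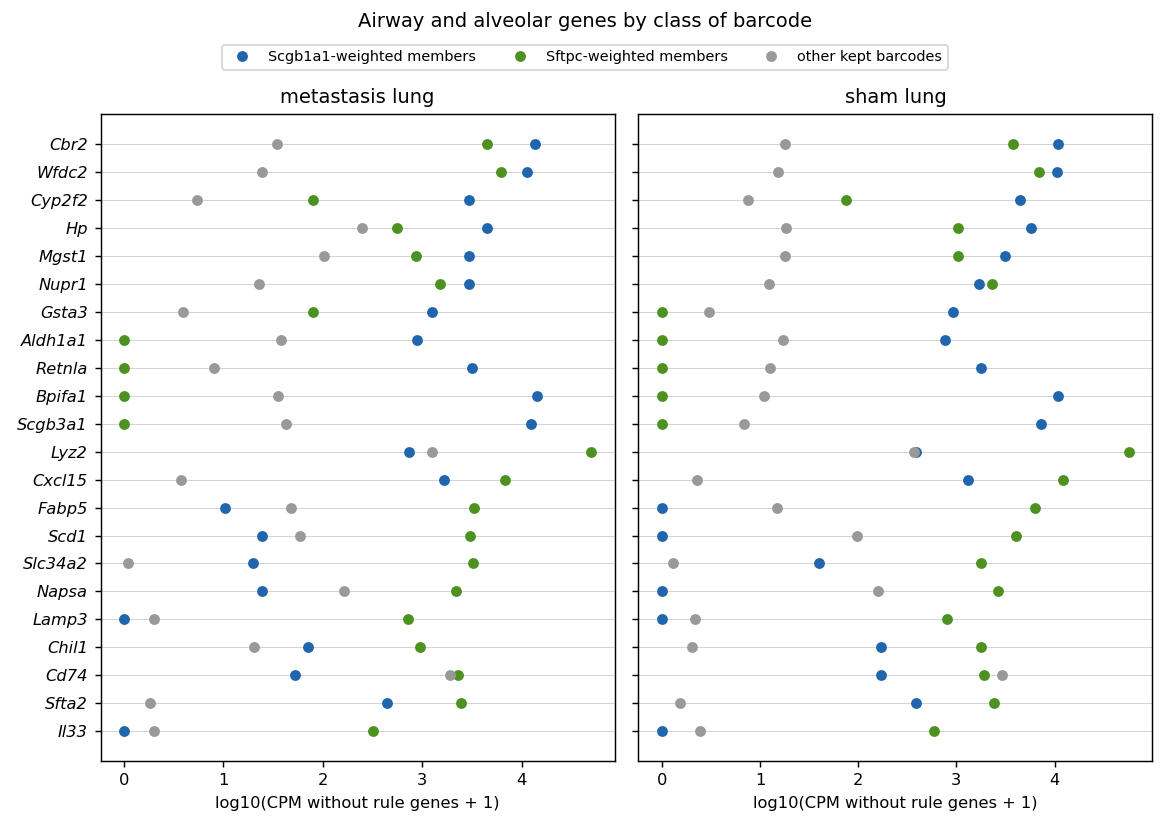
Pooled level of 22 genes (y axis) as log10(CPM without rule genes + 1) in Scgb1a1-weighted barcodes, Sftpc-weighted barcodes and other kept barcodes of the metastasis lung (left) and sham lung (right). Cbr2 and Wfdc2 are high in both selected classes, Bpifa1 and Retnla are at 0 in the Sftpc-weighted class, and Fabp5, Scd1 and Napsa are higher in the Sftpc-weighted class in both libraries.

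The metastasis lung held a larger share of Scgb1a1- or surfactant-rich barcodes. They were 2.08% (1.85 to 2.34) of kept barcodes in the metastasis lung and 0.856% (0.711 to 1.02) in the sham lung, a ratio of 2.43 (1.96 to 3.03). The largest of the ratios by class was that of the Scgb1a1-weighted barcodes, at 2.23% of kept barcodes under 50% haemoglobin against 0.609%, a ratio of 3.66 (2.75 to 4.90). Sftpc-weighted barcodes were 0.184% (0.0982 to 0.315) and 0.175% (0.108 to 0.268), a ratio of 1.05 (0.484 to 2.20). Haemoglobin-rich selected barcodes were 1.71% and 1.26% of all haemoglobin-rich kept barcodes, a ratio of 1.36 (0.882 to 2.15). With haemoglobin-rich barcodes left out of members and denominator, the overall ratio was 3.08 (2.38 to 4.00). These ratios compare 2 libraries, and the intervals hold no variation between mice.

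More Scgb1a1 than Sftpc was found in 93.2% (89.5 to 95.8) of selected metastasis barcodes and 78.5% (70.1 to 85.5) of selected sham barcodes, counting all 3 classes. Kept barcodes with at least 50% haemoglobin numbered 6309 in the metastasis lung and 2138 in the sham lung. Below the limit of 200 genes and under 50% haemoglobin, a further 57 of 64 metastasis and 47 of 58 sham barcodes met the other limits on the 5 genes. Their 5 genes took a median of 80.3% and 75.3% of UMIs, and none of the 10 such barcodes in each blood library met them.

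Between the arms, UMIs were summed over the selected barcodes of a library and scaled to counts per 1000000 UMIs other than haemoglobin (CPM). A gene was measured when it had at least 50 UMIs over both libraries, and called when its levels differed at least 2-fold with an interval that did not reach equality. Of 876 measured genes, 99 (11.3%) were called higher and 25 (2.85%) lower in the metastasis lung, and the median log2 ratio of all measured genes was 0.16. Scaled to all UMIs, haemoglobin included, the calls were 70 higher and 37 lower (65.4% of calls higher, against 79.8%), and that median was -0.10. Without members above 5% haemoglobin, 596 genes were measured and 19 were called higher, 17 of them among the 99. The lower calls then numbered 28, of which 22 were among the 25.

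Of the 99 genes called higher, 82 were also at least 2-fold higher in the other kept barcodes of the metastasis lung. Of the 25 called lower, 3 were also at least 2-fold lower there. The same share over all measured genes was not worked out, so these counts are a description. Red cell genes were among the 82, and the examples here were chosen, like mt-Nd2, after their values were seen. Slc4a1, the band 3 anion exchanger, gave 253 UMIs against 25 (log2 ratio 1.95), and Car2, a carbonic anhydrase, gave 776 against 79 (log2 ratio 1.90). Car2 had a log2 ratio of -0.28 without members above 5% haemoglobin. Among genes called lower, 10 of 25 were of the mitochondrial genome, with mt-Nd2 at 220 UMIs against 499 (log2 ratio -2.58). How many mitochondrial genes were measured is not given here, so this count is a description. In the Scgb1a1-weighted class, 3 barcodes held 78.0% of the mitochondrial UMIs in the metastasis lung and 51.1% in the sham lung.

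Only 9 genes in each direction were also at least 2-fold above the other kept barcodes of the library where they were higher. The 9 higher genes were Galntl6, Mecom, Cyp2a5, Gstk1, Sult1d1, Slc16a11, Pir, Chpt1 and Bpifb1. In the other kept barcodes, Pir (log2 ratio 3.34), Bpifb1 (2.74), Cyp2a5 (2.36), Sult1d1 (1.63) and Slc16a11 (1.56) were also higher in the metastasis lung. The ratios there were 0.41 for Galntl6, -0.24 for Chpt1, -0.38 for Mecom and -0.73 for Gstk1. Galntl6, a glycosyltransferase family member, gave 55 UMIs, all in the deepest metastasis barcode, and 0 in the sham lung. The same barcode held 57 of the 62 UMIs of Mecom, a transcription factor, and 54 of the 58 of Cyp2a5, a cytochrome P450. With the deepest barcode of each library left out, the log2 ratios of Mecom and Cyp2a5 were -1.10 and -1.74, and those of Sult1d1 and Bpifb1 were 0.13 (-0.81 to 1.16) and 0.30 (-0.42 to 1.08).

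The glutathione transferase Gstk1 gave 49 UMIs in 34 metastasis barcodes and 6 UMIs in 5 sham barcodes, a log2 ratio of 1.64 (0.41 to 3.15). Sult1d1, a sulfotransferase, gave 84 UMIs against 13 (log2 ratio 1.30, 0.45 to 2.27), of which 46 were in 1 metastasis barcode. Slc16a11, a monocarboxylate transporter family member, gave 77 UMIs in 44 barcodes against 12 in 10 (log2 ratio 1.29, 0.40 to 2.30). Of the 77, 22 were in 1 metastasis barcode, and under other processing choices the log2 ratio of Slc16a11 ran from 0.22 to 1.45. Chpt1, an enzyme of phosphatidylcholine synthesis, gave 63 UMIs in 44 barcodes against 11 in 10 (log2 ratio 1.12, 0.19 to 2.20). These 4 genes were each seen in 22 or more metastasis barcodes, against 5 or fewer for Galntl6, Mecom and Cyp2a5. Bpifb1, an airway relative of Bpifa1, gave 119 UMIs against 21 (log2 ratio 1.11, 0.43 to 1.85) in 12 and 4 barcodes. Of the 119, 50 were in 1 metastasis barcode. Pir, an iron-binding nuclear protein, gave 53 against 9 (log2 ratio 1.16, 0.13 to 2.37), with 17 of the 53 in 1 metastasis barcode.

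Of the 9 lower genes, all but Tff2 had higher levels in Sftpc-weighted than in Scgb1a1-weighted barcodes of both libraries, which for Sftpc follows from the split and for Ager had an interval that reached equality in the metastasis lung. The Sftpc-weighted class was 13 of 278 selected barcodes in the metastasis lung and 21 of 121 in the sham lung. Fabp5 had 50.3 CPM in the metastasis lung and 346 CPM in the sham lung, a log2 ratio of -2.78 (-3.32 to -2.27). Scd1 had 50.3 and 231 CPM, a log2 ratio of -2.20 (-2.77 to -1.65), and 28 of its 44 metastasis UMIs were in 1 barcode. Chil1, a chitinase-like secreted protein, had a log2 ratio of -2.17 (-2.90 to -1.47), and Lyz2 of -1.47 (-1.60 to -1.33). Sftpc, a gene of the rule, had 5756 and 22537 CPM, a log2 ratio of -1.97. S100g, a calcium-binding protein, was at -1.16, Slc34a2 at -1.11 and Ager, a receptor of alveolar type I cells, at -1.08. For Slc34a2, 35 of its 45 metastasis UMIs were in 1 barcode. Tff2, a trefoil peptide of mucous secretion, was at -1.52 (-2.16 to -0.89), with 34 of its 46 sham UMIs in 1 barcode.

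**Figure D5:**
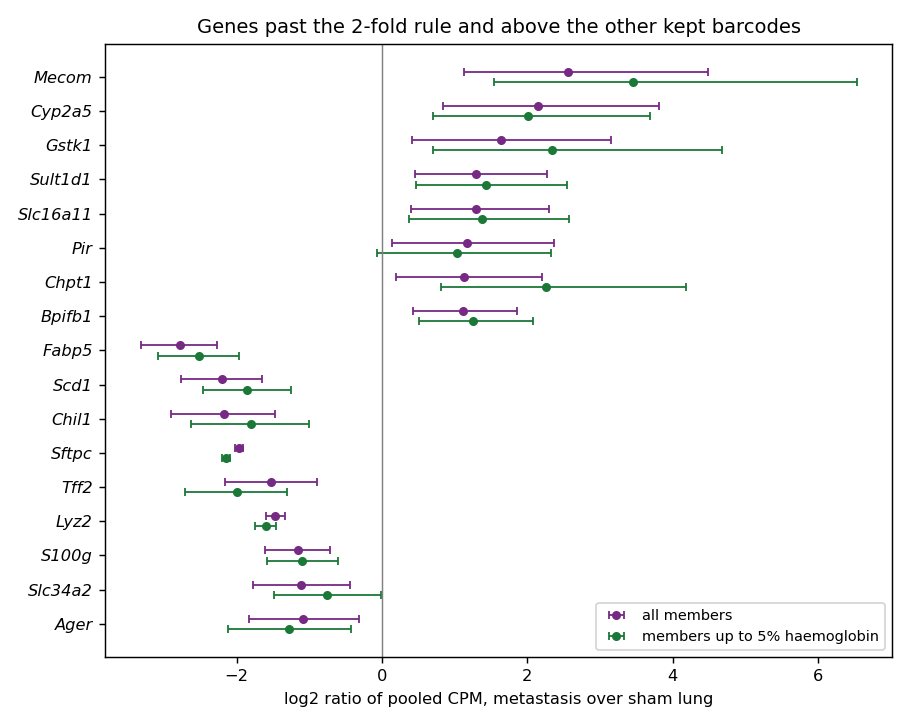
Log2 ratio of pooled CPM, metastasis over sham lung (x axis), for 17 of the 18 genes named by rule (y axis), for all selected barcodes and for those up to 5% haemoglobin, with exact 95% intervals. Galntl6, with 0 sham UMIs, is left out. Fabp5, Scd1, Sftpc and Lyz2 lie to the left of 0 in both sets of barcodes, and the interval of Pir reaches 0 in barcodes up to 5% haemoglobin.

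Within the Scgb1a1-weighted class up to 5% haemoglobin, scaled without the 5 rule genes, the arms differed in fewer genes. Of 539 measured genes, 19 (3.53%) were called higher and 18 (3.34%) lower in the metastasis lung. Mitochondrial genes were 10 of the 18, again without the number of them that were measured. Among the 19, the neutrophil genes S100a8, S100a9 and Retnlg came mostly from the barcode with 782 neutrophil-list UMIs, which held 193, 401 and 132 UMIs of them. The deepest barcode held all 55 UMIs of Galntl6 and most of those of Mecom, Cyp2a5 and Fos. Sftpc, which entered both the rule and the split, gave 509 UMIs against 26 (log2 ratio 2.62), of which 422 were in 2 metastasis barcodes and 87 in the other 139. In the sham lung 23 of the 26 were likewise in 2 barcodes. Lyz2 and S100g had log2 ratios of 0.42 (-0.18 to 1.05) and 0.43 (-0.79 to 1.86), both with intervals that reached equality. Tff2 was again lower (log2 ratio -2.17, -2.89 to -1.48), with 34 of the 46 UMIs it had over all sham barcodes in 1 of them. Gsto1, a glutathione transferase, was lower (-1.14, -1.60 to -0.66), with 43 of the 73 UMIs it had over all sham barcodes in 1 of them. Alas1, which starts haem synthesis, was lower (-1.05, -1.80 to -0.28). Ndufa5 (-1.10, -1.84 to -0.34) and Ndufv3 (-1.11, -1.95 to -0.23), which encode complex I subunits, were also lower, while 0 of 22 measured genes of a fixed oxidative phosphorylation list were past 1.5-fold in this class and their median was -0.17. Slc25a5, the mitochondrial ADP/ATP carrier, was higher (1.00, 0.24 to 1.86), and so was Vapa, a membrane contact protein (1.22, 0.08 to 2.61).

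Gene lists were read at 1.5-fold, where 158 of 876 genes (18.0%) were higher and 42 (4.79%) lower over all selected barcodes. Within the Scgb1a1-weighted class up to 5% haemoglobin these shares were 7.24% and 5.38%. Among all selected barcodes up to 5% haemoglobin, 30 of 596 genes were higher and 47 lower at 1.5-fold. Of the 4 surfactant protein genes, used by the rule, 0 were higher and 3 lower over all selected barcodes, with Sftpa1 at -0.74 and Sftpb at -0.66. Of 25 type II cell genes, 10 were measured, of which 0 were higher and 6 lower, and their median was -0.89 on the log2 scale. In the Scgb1a1-weighted class 3 of these were measured and 0 were called either way.

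Of 29 club cell and airway secretory genes, 24 were measured, of which 4 were higher and 1 lower, and their median was 0.34 on the log2 scale. The 4 were Cyp2a5, Bpifb1, Scgb3a1 (0.72) and Reg3g (0.72), an antimicrobial lectin, and the 1 was Gsto1 (-0.68). Hp had a log2 ratio of -0.33 and Cyp2f2 of -0.51, neither past 1.5-fold. In the Scgb1a1-weighted class 23 were measured, 3 were higher and 2 lower, with a median of 0.31. Scgb1a1 itself was 63.2% and 64.4% of the pooled UMIs. Of 22 genes of epithelial identity, 9 were measured and 1 was higher, Cd24a (1.33), which red cell precursors also express; it was 0.53 without members above 5% haemoglobin.

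Of 19 host defence genes, 9 were measured, 2 were higher and 2 lower. The higher ones were Reg3g and Retnla (0.84, 0.58 to 1.10), and the lower ones Lyz2 and Chil1. Of 20 chemokine and cytokine genes, 2 were measured, with Cxcl17, a mucosal chemokine, higher (0.89, 0.20 to 1.64) and Cxcl15 lower (-0.68, -0.89 to -0.46). None of the 14 genes of the IL-1 receptor pathway was measured, at 62 UMIs in the metastasis lung and 23 in the sham lung over the whole list, so a difference was not detectable at this depth. Cxcl1, a neutrophil chemokine, had 0 UMIs in all selected barcodes.

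Of 16 interferon response genes, 3 were measured and 2 were higher. Isg15, a ubiquitin-like protein, gave 580 UMIs against 17 (log2 ratio 3.70), of which 571 and 11 were in haemoglobin-rich barcodes, and Rsad2 gave 297 against 31. In barcodes up to 5% haemoglobin, 1 interferon gene was measured and 0 were called. Of 24 nuclear genes of oxidative phosphorylation, 22 were measured and 4 were higher, among them Atp5b (1.21). In barcodes up to 5% haemoglobin 0 of 22 were called either way, and Atp5b was at -0.29. Of 24 immediate early and stress genes, 6 were measured and 1 was higher, Fos, with 48 of its 57 metastasis UMIs in the deepest barcode.

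Among the remaining lists, 1 of 3 measured lipid synthesis genes was higher (Chpt1) and 1 lower (Scd1). Of 2 measured type I cell genes, Ager was lower and Hopx (0.22) was not called. The single measured MHC class II gene, Cd74, was lower (-1.39, -2.02 to -0.77), and so was 1 of 3 class I genes, H2-K1 (-1.35, -2.11 to -0.59). Gapdh (0.99) was the 1 higher gene of 3 measured in glycolysis, Ube2c (1.02) the 1 measured proliferation gene, and the ciliary gene Dynlrb2 the 1 measured ciliated cell gene (-0.90). In barcodes up to 5% haemoglobin, 0 of 2 measured glycolysis genes were called, Gapdh was at 0.42, and no gene of the proliferation or ciliated cell lists was measured. In the same barcodes, 0 of 2 measured class I genes were called, and Cd74 was at -1.38. No gene of 4 measured in the list of injury-associated transitional cells was called, and 0 of 7 basal and neuroendocrine genes was measured.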

How the data were processed

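The deposited matrices, 1 for each library, hold unnormalised whole-number counts of UMIs over 32285 genes, per the file headers. The submitters' processing notes name the build GRCm38.p6 and the tools Cell Ranger 7.0.0, R 4.3.1 and Seurat 4.3.0.1. Their roles, and any removal of free RNA, were not stated. The smallest barcode held 500 UMIs. The authors deposited no cell type calls.

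Counts were read in Python 3.11.15 with scipy 1.17.1, and doublets were scored with Scrublet in scanpy 1.11.5. Pooled counts were compared as log2 ratios with exact conditional 95% intervals, shares with Clopper-Pearson intervals. With 1 library per group, no p-value was computed. The comparison was run on simulated pooled counts, drawn independently for each gene. These held no uneven spread of UMIs over barcodes, so they cannot show how calls carried by 1 barcode behave. Named genes were up to 12 in each direction, called at 2-fold and at least 2-fold above the other kept barcodes, without ribosomal, mitochondrial, haemoglobin, receptor segment and unnamed genes. The selected barcodes and the gene lists were chosen with earlier results of these data known, and the classes by haemoglobin, Scgb1a1 and Sftpc after seeing the values. Alternatives covered scaling, filters, depth, doublets and members.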

Additional observations from a re-analysis of the deposited data

How the results depend on the processing

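No paired analysis was possible because each arm has 1 lung library. Of the alternatives, those for members without haemoglobin-rich barcodes, for Scgb1a1-weighted barcodes up to 5% haemoglobin, without neutrophil-list barcodes, without Malat1 and at a 10% rule share were chosen after seeing the data. The count of 99 genes higher became 159 with the mean of each barcode's CPM, 168 and 59 with minimums of 20 and 100 UMIs, 44 at 400 genes, 32 when thinned to 1000 UMIs, 22 without haemoglobin-rich barcodes, 19 without barcodes over 5% haemoglobin, 19 in Scgb1a1-weighted barcodes with the 5% limit and scaling without the rule genes applied together, and 11 where Sftpc was at least Scgb1a1. The count of 25 genes lower became 71 with the mean CPM, 55 and 14 with 20 and 100 UMIs, 11 when thinned and 2 where Sftpc was at least Scgb1a1. The ratio of shares of 2.43 became 3.76 at 400 genes, 3.91 over kept barcodes under 50% haemoglobin, 3.08 without haemoglobin-rich barcodes, and reversed to 0.773 (0.404 to 1.45) for the 19 and 26 barcodes with Sftpc at least Scgb1a1. The share of metastasis barcodes with more Scgb1a1 than Sftpc became 96.7% at 400 genes. The other alternatives left these counts within 1.5 times and these shares within their intervals.

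Mecom reversed to -0.97, -2.04, -1.10 and -0.80, and Cyp2a5 to -1.28, -2.63, -1.74 and -1.71, with the mean CPM, when thinned, without the deepest barcodes and without Malat1. When thinned, Chpt1 reversed to -0.58 and Tff2 to 0.28. In the same Scgb1a1-weighted set and scaling Sftpc reversed to 2.62, Lyz2 to 0.42 and S100g to 0.43, and where Sftpc was at least Scgb1a1, Slc34a2 reversed to 0.49. The cause of each was not tested, apart from the single deepest barcode that held most Mecom and Cyp2a5 UMIs.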
